A study of Mus musculus with 44 samples.

Results

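The 10 genes described here are Krüppel-like factors: Klf2, Klf4, Klf5, Klf6, Klf7, Klf9, Klf10, Klf11, Klf13 and Klf15, measured in mouse dorsal hippocampus before and after contextual fear conditioning. They were chosen by symbol from the 17 Klf genes among the 27179 genes in the count files, with earlier results of these counts in view. Which measured values guided the pick is not recorded, so the adjusted p-values below describe these genes and are not independent evidence for them. All 10 passed the low-count filter in each of 13 comparisons. The other 7 Klf genes (Klf1, Klf3, Klf8, Klf12, Klf14, Klf16 and Klf17) were left out of the group.

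RNA was sequenced from 36 libraries, 6 in each of 6 groups: WT littermates and Kdm5b ΔARID/ΔARID homozygotes (mutants), naive (0 h) or killed 1 h or 3 h after training with 3 shocks of 0.7 mA. All mice were 7 to 8 weeks old, on a mixed C57BL/6J and 129S2/Sv F2 background, and each group held 3 mice labelled male and 3 labelled female. The mutant allele is a germline deletion of exons of Kdm5b, so every cell type carries it. Its product lacks the ARID domain and the demethylation of H3K4me3. The study also reported an apparent drop in total KDM5B protein, through instability or weaker detection of the mutant form. Lost demethylation and lower protein cannot be told apart in these data. Naive mice had neither the chamber nor the shock, so exposure to the context, shock and handling cannot be told apart in any difference from 0 h. Tissue was bulk, so a change in the share of a cell type and a change in RNA per cell cannot be told apart.

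Library totals ran from 40274435 to 107000233 counts. The 10 genes drew between 130 counts (the lowest library of Klf5) and 34391 counts (the highest library of Klf13). Kdm5b itself does not check the genotype labels in these counts, because the deletion spares most of its exons: its level ran from 79.4 to 97.0 CPM (counts scaled to library size) in WT libraries and from 75.8 to 93.8 CPM in mutants. All markers of neurons, CA1, CA3 and dentate granule cells were detected in every library. Choroid plexus markers (6 genes, Ttr, Kl, Folr1, Kcnj13, Clic6 and Sostdc1) varied most, from 44.7 to 7954.8 CPM in sum, and over all times all 6 had lower estimates in mutants (median log2 fold change -1.63, none called by edgeR, 6 at an unadjusted p under 0.05, as were 15.2% of all genes).

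For 2 libraries, Xist and Y-linked counts went against the labelled sex. WT 1 h male 1, as labelled, had 51186 Xist counts with 0 from Y-linked genes, and its summed immediate early gene level of 561.8 CPM was below the 745.5 to 1321.1 CPM of the other 5 WT libraries at 1 h. Mutant 3 h female 2, as labelled, had 36 Xist counts with 10239 from Y-linked genes, and its immediate early gene sum of 1309.6 CPM was above the 469.8 to 723.1 CPM of the other 5 mutant libraries at 3 h. Kdm5b stood at 79.4 CPM in the first, against 89.9 to 97.0 CPM in the other 5 WT libraries at 1 h, and at 93.8 CPM in the second, against 77.6 to 86.1 CPM in the other 5 mutant libraries at 3 h. In both measures each library thus lay outside its own group and within the range of the other's. Without these 2, Kdm5b ran from 81.6 to 97.0 CPM in WT libraries and from 75.8 to 90.6 CPM in mutants, so the genotypes still overlapped. An exchange of the 2 libraries, which would also change their genotype and time, was not tested beyond these values. Both stayed under their labels. A comparison within 1 h or with 0 h holds at most 1 of them, and values of Klf2, Klf4, Klf9, Klf10, Klf11, Klf13 and Klf15 without that library are given beside the main ones. Values of the other genes rest on all libraries.

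Krüppel-like factors bind GC-rich and CACCC elements in DNA through 3 zinc fingers at the carboxyl end and act as activators or repressors, depending on the cofactors they recruit. Klf9, Klf13, Klf10, Klf11 and Klf16 recruit the Sin3a corepressor, while Klf2, Klf5, Klf6 and Klf7 are mostly activators and Klf4 acts both ways. In the brain, several members are induced by neuronal activity or by hormones, and members are known for opposite roles in axon growth.

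The promoters of the genes the results turn on are shown from RefSeq (GRCm38.p6), 5′ to 3′ on the strand of the gene. They end before the start of the gene in RefSeq or GENCODE M21, whichever comes first: Klf2 at chr8:72318812-72319032 (plus strand), Klf9 at chr19:23140976-23141225 (plus), Klf13 at chr7:63938916-63939165 (minus) and Klf15 at chr6:90462326-90462575 (plus). Capitals mark matches to 6 motifs, searched on both strands: TGACG (the core of a cAMP response element), CACCC (the CACCC box), GGGCGG (a GC box), TGTTCT (an arm of a glucocorticoid response element), the CArG box and the MEF2 site. Neighbouring or overlapping matches run together.
Klf2: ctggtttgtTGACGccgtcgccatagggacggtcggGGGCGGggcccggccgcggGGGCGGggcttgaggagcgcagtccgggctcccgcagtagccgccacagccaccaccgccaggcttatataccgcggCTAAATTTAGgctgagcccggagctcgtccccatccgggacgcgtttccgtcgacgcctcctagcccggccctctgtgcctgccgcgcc
Klf9: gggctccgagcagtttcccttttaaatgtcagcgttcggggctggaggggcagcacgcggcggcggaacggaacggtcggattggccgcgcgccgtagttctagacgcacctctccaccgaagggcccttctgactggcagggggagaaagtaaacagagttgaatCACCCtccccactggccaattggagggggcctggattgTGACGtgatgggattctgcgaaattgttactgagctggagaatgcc
Klf13: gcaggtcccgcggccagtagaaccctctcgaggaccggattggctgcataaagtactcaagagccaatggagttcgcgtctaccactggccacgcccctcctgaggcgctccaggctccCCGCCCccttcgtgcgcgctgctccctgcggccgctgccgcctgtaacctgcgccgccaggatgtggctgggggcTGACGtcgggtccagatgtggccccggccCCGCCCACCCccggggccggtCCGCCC
Klf15: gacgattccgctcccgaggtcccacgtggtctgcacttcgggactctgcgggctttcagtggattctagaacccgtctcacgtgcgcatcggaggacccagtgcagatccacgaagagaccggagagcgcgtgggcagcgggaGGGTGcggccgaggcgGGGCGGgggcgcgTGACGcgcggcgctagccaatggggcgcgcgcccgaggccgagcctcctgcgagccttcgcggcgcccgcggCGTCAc
RefSeq promoters were matched for 8 members, all but Klf5 and Klf10. Each window searched was 300 bases, 250 before and 50 after the start. A match to the MEF2 site lay 118 to 109 bases before the start of Klf2, and no other of the 8 held one. Of 32851 mouse promoters, 0.557% held it. TGACG matched in Klf2, Klf4, Klf9, Klf13 and Klf15 (20.8% of all promoters), CACCC in Klf2, Klf7, Klf9, Klf13 and Klf15 (57.5%), and GGGCGG in all 8 but Klf9 (35.7%). The window of Klf2 held 1 CACCC match that lies past the stretch shown. The CArG box (1.63% of promoters) and TGTTCT (19%) matched in none of the 8. A match is a string of letters, and the counts here do not measure binding.

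Level per length was graded across the family. Klf9 was highest, at 45.5 ± 6.0 CPM per kilobase of exon (SD, n = 36), followed by Klf13 at 38.6 ± 2.8, and Klf9 exceeded Klf13 in 35 of the 36 libraries. Klf15 (10.1 ± 2.0), Klf10 (6.59 ± 1.19) and Klf6 (6.43 ± 0.555) came next, and Klf10 and Klf6 did not separate, with Klf10 above Klf6 in 20 of 36 libraries. Klf2 stood at 4.15 ± 1.11 CPM per kilobase. Klf4 (1.52 ± 0.33) and Klf11 (1.36 ± 0.20) overlapped, with Klf4 higher in 22 of 36 libraries, and Klf7 (0.956 ± 0.096) and Klf5 (0.636 ± 0.145) were lowest. Of the Klf genes outside the group, Klf16 lay between Klf13 and Klf15 at 23.5 ± 2.0, while Klf14 and Klf17 were at or near 0.

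**Figure D1:**
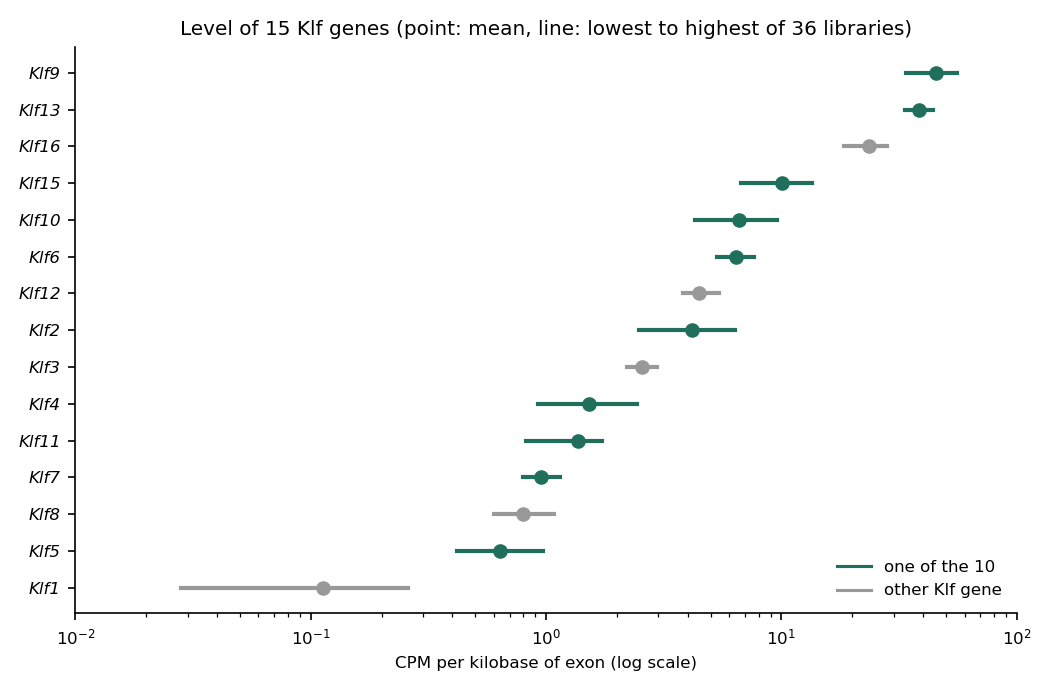
Level of 15 Klf genes in CPM per kilobase of exon on a log axis, with the mean as a point and a line from the lowest to the highest of 36 libraries. Klf9 and Klf13 stand highest and Klf5 lowest among the 10 (green). Klf14 and Klf17, with libraries at 0, are not drawn.

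Relative spread differed between members too. The coefficient of variation over the 36 libraries was 26.6% for Klf2 and 19.5% for Klf15, but 7.19% for Klf13. The plot of each library by group shows both.

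**Figure D2:**
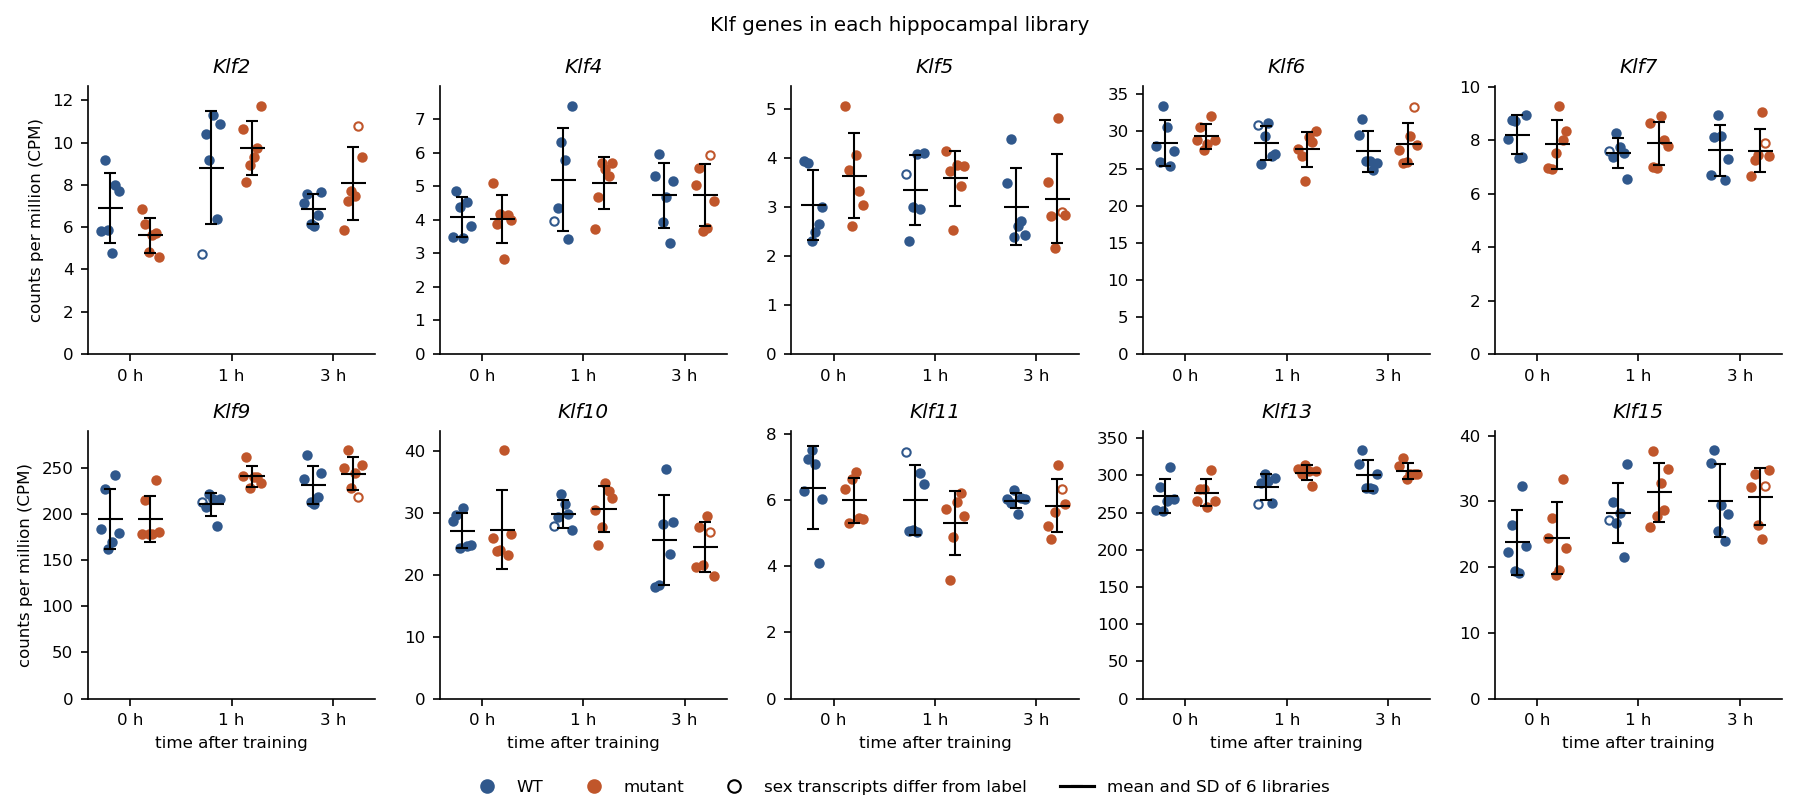
CPM of each of the 10 genes in 36 libraries (points), by genotype and time after training, with mean and SD of 6 libraries. Open points are the 2 libraries whose sex transcripts differ from the label. Klf2 in mutants at 1 h lies above every naive mutant.

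Klf2 and Klf4 are close relatives. Klf2 keeps blood vessels quiescent and is a classical target of the Erk5-Mef2 pathway. Klf2 had a lowest, median and highest level of 4.604, 5.67 and 6.85 CPM in naive mutants, against 8.14, 9.53 and 11.74 CPM in mutants at 1 h. The 6 trained libraries were all above the 6 naive ones, a separation found in 1.44% of the 16207 genes with at least 0.5 CPM in 6 libraries. Klf2 rose 1.73-fold (log2 fold change 0.79, SE 0.12, adjusted p = 0.00966, edgeR quasi-likelihood test with Benjamini-Hochberg adjustment over 17282 genes). It was the only member called in that comparison (1 of 10), where 0.312% of all genes were called, and it ranked 12 by p among all genes. The call held in each of 12 fits that left out 1 library, with log2 fold changes from 0.73 to 0.86.

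In WT mice, Klf2 stood at 4.79, 6.81 and 9.16 CPM when naive and at 4.74, 9.81 and 11.29 CPM at 1 h, and the groups overlapped. Of the 6 trained WT libraries, 4 were above every naive one, and the lowest was the library labelled male 1. The log2 fold change of Klf2 was 0.35 (SE 0.22, adjusted p = 0.926, edgeR), and 0.49 (adjusted p = 0.679) without that library. No gene at all was called by edgeR in WT mice at 1 h (0% of 17319, with 5.36% at an unadjusted p under 0.05, and 9 (0.052%) called by DESeq2 with sex), none of the 10 members had an unadjusted p under 0.05, and DESeq2 called none of them.

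The response of Klf2 was not shown to differ between genotypes. The interaction at 1 h was 0.44 on the log2 scale (95% interval -0.09 to 0.96, adjusted p = 0.999, edgeR), and 0.31 (adjusted p = 1) without WT 1 h male 1. No gene of 17907 passed (0%), with no member at an unadjusted p under 0.05 (3.78% of all genes) and none called by DESeq2. Between naive mice, the log2 difference of mutants from WT in Klf2 was -0.30 (SE 0.16, adjusted p = 0.835, edgeR). At 1 h the means were 9.76 ± 1.28 CPM (SD, n = 6) in mutants and 8.82 ± 2.67 CPM (SD, n = 6) in WT mice, or 9.63 ± 1.98 CPM in the 5 WT libraries other than male 1.

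Over both genotypes, with 24 libraries and genotype and sex as covariates, Klf2 rose at 1 h by 0.57 (SE 0.13, adjusted p = 0.0379, edgeR), again as the only 1 of 10 members called, against 1.05% of all genes. DESeq2 with sex also called Klf2 alone, against 2.22% of all genes. Without WT 1 h male 1 the change was 0.64 (adjusted p = 0.00263). The call was kept in 5 of 24 fits that left out 1 library (WT 0 h male 2, WT 0 h female 2, WT 0 h female 3, WT 1 h male 1 or WT 1 h female 2) and lost in the other 19, with adjusted p from 0.050 to 0.080.

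At 3 h Klf2 stood at 6.05, 6.86 and 7.67 CPM in WT mice, all within the naive range (log2 fold change -0.01, SE 0.15). In mutants it stood at 5.88, 7.59 and 10.78 CPM, with 5 of 6 libraries above every naive mutant and the highest value in the library labelled female 2. The log2 fold change against naive mutants was 0.51 (SE 0.14, adjusted p = 0.339, edgeR), and 0.42 (adjusted p = 0.267) without that library. The interaction at 3 h had the size 0.52 (95% interval 0.09 to 0.95, unadjusted p = 0.0204, adjusted p = 1, edgeR), and 0.43 (adjusted p = 1) without mutant 3 h female 2. Again no gene passed by edgeR (0% of 17926) or by DESeq2. From 1 h to 3 h, over both genotypes, Klf2 differed by -0.32 (SE 0.11, adjusted p = 0.234). Without the 2 discordant libraries that difference was -0.42 and passed (adjusted p = 0.0118, edgeR), in a fit that called 2.09% of 18000 genes.

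Klf4, one of the factors that reprogram cells to pluripotency and a brake on axon growth, had its highest group mean at 1 h in both genotypes, as Klf2 did. It stood at 3.45, 4.10 and 4.86 CPM in naive WT mice and at 3.44, 5.05 and 7.40 CPM in WT mice at 1 h, with overlap. The log2 fold change of Klf4 at 1 h was 0.34 in WT mice (SE 0.18; 0.21 to 0.44 without 1 library, lowest without WT 1 h female 3) and 0.34 in mutants (SE 0.14), and 0.34 over both (SE 0.12, adjusted p = 0.175, edgeR). At 3 h it was 0.22 (SE 0.10, adjusted p = 0.293, edgeR). Without the discordant library the changes of Klf4 were 0.42 in WT mice at 1 h (adjusted p = 0.736), and over both genotypes 0.38 an hour after training (adjusted p = 0.101) and 0.18 at the later time (adjusted p = 0.386, edgeR). No alternative fit, and no fit without 1 library, called Klf4 in these comparisons.

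Klf2 and Klf4 are known for high expression in endothelium. The summed level of 11 endothelial markers (Cldn5, Flt1, Pecam1 and others) ran from 255.0 to 308.2 CPM in naive mutants and from 248.3 to 286.0 CPM in mutants at 1 h, with none of the 11 called and none at 0 in any library. Of 5 genes that Klf2 and Klf4 are known to activate in endothelium (Nos3, Thbd, S1pr1, Tek and Esam), none was called at 1 h or 3 h against 0 h (1.05% and 1.57% of all genes). S1pr1, a receptor of sphingosine 1-phosphate, fell by 0.20 (log2, SE 0.05; adjusted p = 0.0471, edgeR) between 1 h and 3 h, where 0.486% of all genes were called. At 3 h against 0 h, 1 of the 11 markers rose, the amino acid transporter Slc7a5 (0.23, SE 0.06, adjusted p = 0.0436, edgeR), against 1.57% of all genes.

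The inputs to Klf2 were also examined. Among Map2k5, Mapk7, Mef2a, Mef2b, Mef2c and Mef2d, the kinases and factors of the Erk5-Mef2 pathway, 0 of 6 were called at 1 h over both genotypes by edgeR, with 1 at an unadjusted p under 0.05 (12.8% of all genes). Of 14 immediate early genes, 11 rose in that comparison and none fell, with a median log2 fold change of 0.74 against -0.01 over all genes. Fosb rose most clearly (1.36, SE 0.11, adjusted p = 1.54e-07, edgeR), followed in order of p by Egr3, Fosl2 and Egr4.

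**Figure D3:**
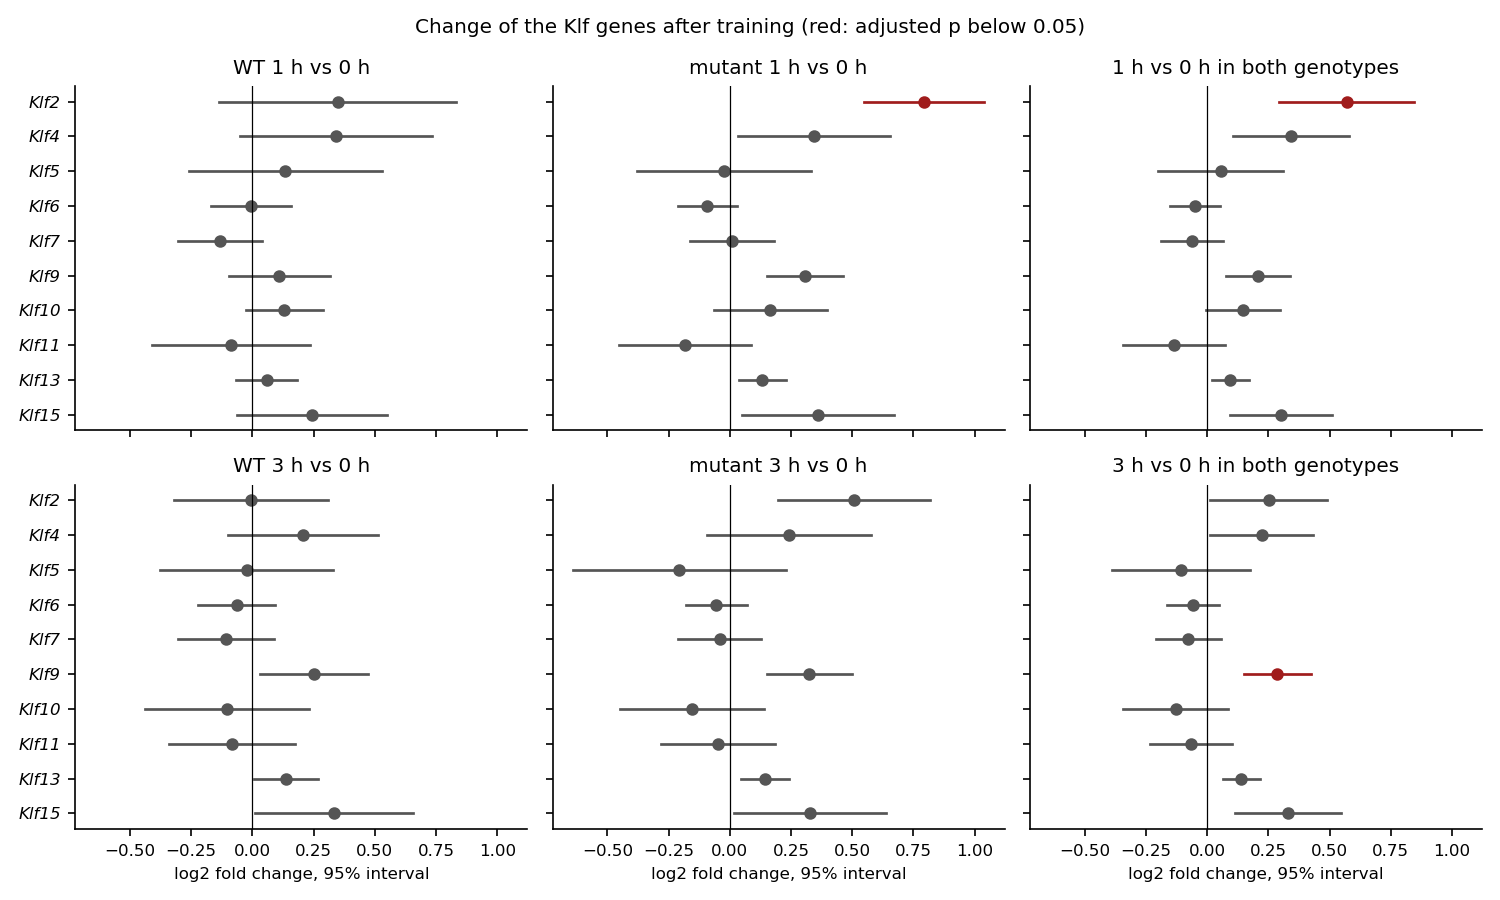
Log2 fold change of each of the 10 genes against 0 h with its 95% interval (edgeR), at 1 h (top) and 3 h (bottom), in WT mice, in mutants and over both genotypes. Red marks the calls: Klf2 at 1 h in mutants and over both, and Klf9 at 3 h over both.

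Klf9 and its close paralog Klf13 are repressors that bind the basic transcription element, and Klf9 is known as a target of glucocorticoid and thyroid hormone receptors and for the late maturation of dentate granule neurons. Klf9 stood at 162.4, 182.0 and 241.9 CPM (lowest, median, highest) in naive WT mice and 178.0, 179.7 and 236.6 CPM in naive mutants. At 3 h it stood at 211.0, 228.6 and 264.0 CPM in WT mice and 218.6, 247.4 and 269.1 CPM in mutants. Every 3 h library was above the mean of its own naive group, yet the ranges overlapped in both genotypes. Over both genotypes Klf9 rose at 3 h by 0.29 (SE 0.07, 1.22-fold, adjusted p = 0.0284, edgeR), the only 1 of 10 members called, against 1.57% of all genes. Without mutant 3 h female 2 the change was 0.30 (adjusted p = 0.0186).

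The call on Klf9 was kept in 16 of 24 fits that left out 1 library. It was lost, with adjusted p between 0.0515 and 0.0583, without WT 0 h male 1 or male 3, mutant 0 h male 1, male 3 or female 1, WT 3 h male 2, mutant 3 h male 2 or mutant 3 h female 3. Within 1 genotype, the log2 fold change at 3 h was 0.25 in WT mice (SE 0.10, adjusted p = 0.563, edgeR). The value for mutants was 0.33 (SE 0.08, adjusted p = 0.314, edgeR), and 0.36 (adjusted p = 0.146) without female 2. DESeq2 with sex called it (adjusted p = 0.025), as 0.636% of all genes. By edgeR no gene was called in either (0% of 17438 and 0% of 17285), while 3 members in WT mice and 4 in mutants had an unadjusted p under 0.05, against 8.23% and 8.57% of all genes.

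The naive groups of Klf9 were divided in the same way in both genotypes. The mice numbered 2 were high: 227.7 CPM (male) and 241.9 CPM (female) in WT, 215.4 CPM (male) and 236.6 CPM (female) in mutants. The other 8 naive mice lay between 162.4 and 184.2 CPM. Klf15 in naive mice had its highest values in the same 4 libraries, at 26.4 and 32.3 CPM in WT and 27.5 and 33.4 CPM in mutants. The summed level of 14 genes known to be induced by glucocorticoids also stood apart in these 4, at 982.1 to 1380.8 CPM against 703.7 to 813.0 CPM in the other 8. What the numbers stand for is not given in the sources used here.

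At 1 h, Klf9 was 186.8, 214.8 and 221.9 CPM in WT mice and 228.6, 240.2 and 261.8 CPM in mutants. All 6 mutants were above all 6 WT mice, a separation held by 0.617% of the 16207 genes. The genotype difference of 0.20 (SE 0.04, unadjusted p = 0.000432) did not pass over all genes (adjusted p = 0.215, edgeR; 0% of 17261 called), but passed with DESeq2 (adjusted p = 0.010 with sex, where 0.608% of genes were called, and 0.0112 without). Without WT 1 h male 1 the difference was 0.20 (adjusted p = 0.126, edgeR). Against naive mice, Klf9 at 1 h differed by 0.31 in mutants (SE 0.07, adjusted p = 0.104, edgeR) and by 0.11 in WT mice (SE 0.10, adjusted p = 0.943). The WT value ran from 0.06 (without WT 0 h male 3) to 0.19 (without WT 0 h female 2) in fits without 1 library. In mutants DESeq2 with sex called it (adjusted p = 0.00594, 2.05% of genes), and so did edgeR without mutant 0 h female 2 (0.38, adjusted p = 0.0117). The interaction was 0.19 (95% interval -0.06 to 0.45, adjusted p = 0.999, edgeR), and 0.20 (adjusted p = 1) without WT 1 h male 1, which left the differences in WT mice and over both genotypes at 0.11 and 0.21 (adjusted p = 0.899 and 0.115). Over both genotypes the difference at 1 h was 0.21 (SE 0.06, adjusted p = 0.131, edgeR), and it passed without WT 0 h male 2 (0.24, adjusted p = 0.0481) or WT 0 h female 2 (0.25, adjusted p = 0.0235).

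Klf13, the most abundant of the 10 in CPM, was steady: 252.1, 266.5 and 310.6 CPM in naive WT mice and 257.4, 273.5 and 307.7 CPM in naive mutants. At 3 h it stood at 281.9, 292.4 and 333.4 CPM in WT mice and 294.6, 301.6 and 322.6 CPM in mutants. The difference over both genotypes was 0.14 (SE 0.04, 1.10-fold) with an adjusted p of 0.0535 (edgeR), and 8 of 10 alternative fits called it. So did 4 of 24 fits without 1 library (WT 0 h female 2, mutant 0 h female 2, WT 3 h female 1 or mutant 3 h female 2). At 1 h the difference was 0.10 (SE 0.04, adjusted p = 0.250), and 0.11 (adjusted p = 0.143) without WT 1 h male 1. The value at 3 h without mutant 3 h female 2 was 0.14 (adjusted p = 0.0455, edgeR).

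Klf15 drives amino acid use and glucose balance in liver and muscle and is a direct target of the glucocorticoid receptor. It stood at 19.0, 22.8 and 32.3 CPM in naive WT mice and 18.7, 23.7 and 33.4 CPM in naive mutants. At 3 h it stood at 23.9, 28.8 and 37.7 CPM in WT mice and 24.2, 32.2 and 34.8 CPM in mutants, with wide overlap. The difference over both genotypes was 0.30 at 1 h (SE 0.10, adjusted p = 0.175) and 0.33 at 3 h (SE 0.11, adjusted p = 0.109, edgeR). Without the discordant library it was 0.31 (adjusted p = 0.161) and 0.32 (adjusted p = 0.120). DESeq2 called it at 3 h (adjusted p = 0.0361 with sex), where it called 3.77% of all genes. Leaving out WT 0 h female 2 or mutant 0 h female 2, the highest naive mice, gave 0.39 and a call in each case (adjusted p = 0.0351 and 0.0360).

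Klf9, Klf13 and Klf15 varied together from mouse to mouse. Over the 36 libraries, Pearson's r of log2 CPM was 0.88 for Klf9 with Klf13 (Spearman's rho 0.85), 0.83 for Klf9 with Klf15 (rho 0.73) and 0.79 for Klf13 with Klf15 (rho 0.77). With each group's mean removed, r was 0.78, 0.76 and 0.70. Within single groups of 6, r of Klf9 with Klf13 was 0.90 in naive WT mice, 0.85 in naive mutants and -0.31 in mutants at 1 h. These are descriptions without a p, because the genes were picked with results known, and all values of a library share its preparation and depth. Klf11 ran the other way, with r of -0.55 with Klf15 (-0.53 with group means removed).

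**Figure D4:**
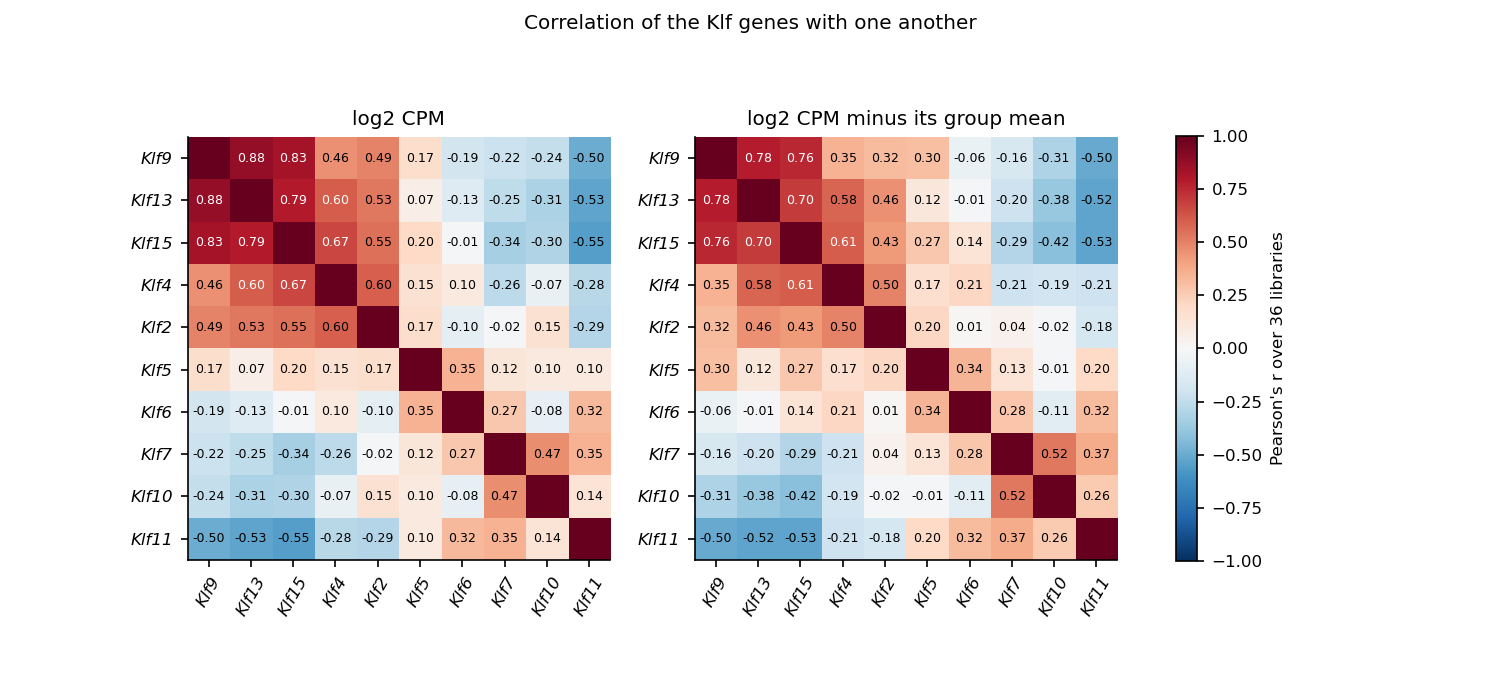
Pearson's r between the 10 genes over 36 libraries, on log2 CPM (left) and on log2 CPM minus the mean of the group (right). Klf9, Klf13 and Klf15 form a block of high r in both, and Klf11 is negative with all 3.

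A list of 14 genes known to be induced by glucocorticoids (Fkbp5, Sgk1, Tsc22d3, Per1, Zbtb16, Hif3a, Pdk4, Errfi1, Cdkn1a, Ddit4, Mt1, Mt2, Sult1a1 and Nfkbia) was set beside the members, with no Klf gene in it. Its score, the mean over genes of log2 CPM standardised across libraries, had r of 0.95 with Klf15 (rho 0.94), 0.88 with Klf9 (rho 0.81) and 0.83 with Klf13 (rho 0.83). Without the 2 libraries farthest from the median score r was 0.94, 0.85 and 0.86. Within single groups r lay between 0.91 and 0.99 for Klf15, between 0.33 (mutants at 3 h) and 0.98 for Klf9, and between -0.12 (mutants at 1 h) and 0.93 for Klf13. Over all libraries it was lower for Klf4 (0.61) and Klf2 (0.57), and negative for Klf11 (-0.58), Klf7 (-0.38) and Klf10 (-0.29).

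Of these 14 genes, 3 were called at 1 h over both genotypes and 1 at 3 h, against 1.05% and 1.57% of all genes. The summed level of the list in WT mice ran from 703.7 to 1380.8 CPM when naive. It ran from 890.1 to 1361.5 CPM in WT mice at 1 h and from 903.2 to 1443.4 CPM at 3 h. In mutants it ran from 708.8 to 1284.3 CPM when naive. It ran from 1087.5 to 1382.3 CPM in mutants at 1 h and from 942.4 to 1355.5 CPM at 3 h. In both genotypes the ranges at 1 h and 3 h overlapped the naive range. All 14 genes had positive log2 fold changes at 1 h over both genotypes, and the 3 called were Pdk4, a brake on glucose oxidation (0.61, SE 0.10, adjusted p = 0.00392), the clock gene Per1 (0.53, adjusted p = 0.00626) and Errfi1 (0.45, adjusted p = 0.0128, edgeR). Pdk4 and Per1 were also called in the comparison within mutants at 1 h. The gene called at 3 h was Fkbp5, a cochaperone of the receptor (0.59, SE 0.12, adjusted p = 0.0157, edgeR). The genes of the receptors themselves (Nr3c1, Nr3c2, Thra, Thrb, Pgr and Esr1) had 0 of 6 called by edgeR at 1 h and at 3 h, with 0 and 1 at an unadjusted p under 0.05 (12.8% and 15.1% of all genes). Of 7 genes known to respond to thyroid hormone none was called at either time, with 1 at an unadjusted p under 0.05 at each.

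**Figure D5:**
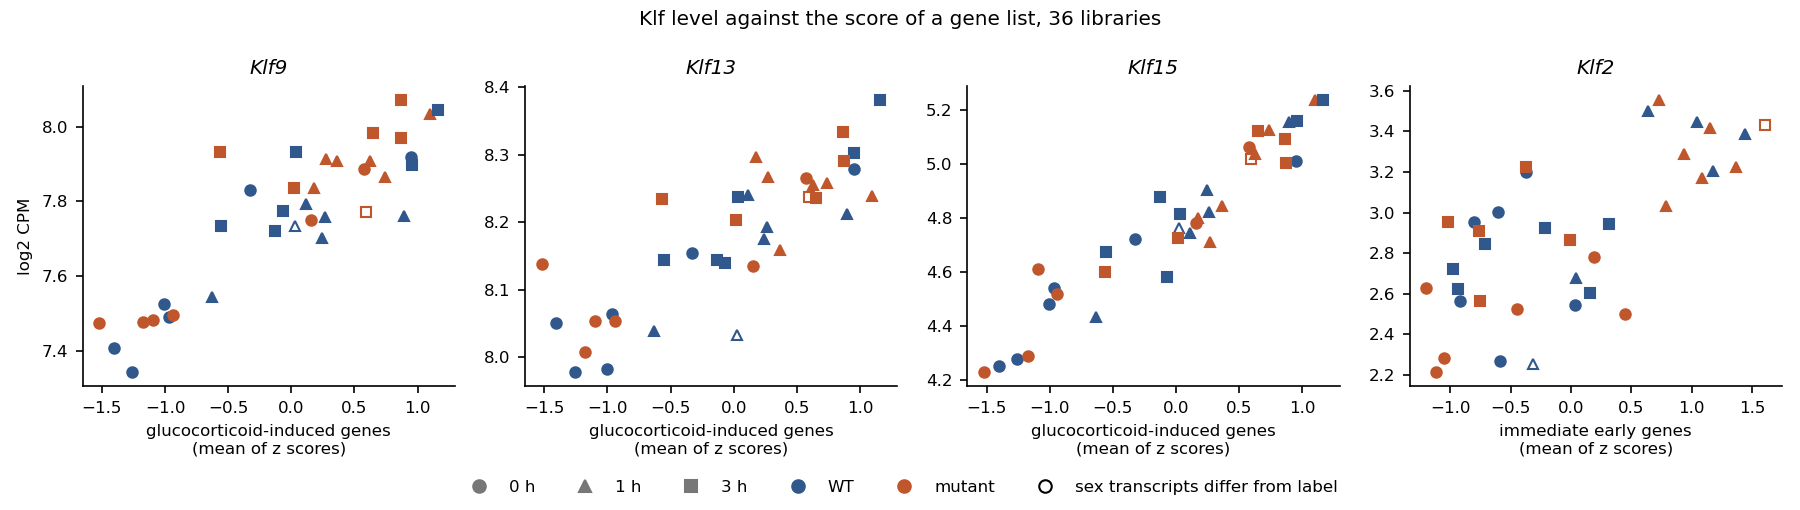
Log2 CPM of Klf9, Klf13 and Klf15 against the score of 14 glucocorticoid-induced genes, and of Klf2 against the score of 14 immediate early genes, in 36 libraries. Circles, triangles and squares are 0, 1 and 3 h, and open points are the 2 libraries of discordant sex. Klf15 follows the glucocorticoid score most closely (r = 0.95).

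Klf2 had r of 0.70 with the score of the immediate early genes (rho 0.64, 0.65 without the 2 libraries farthest from the median score, and 0.69 without the 2 discordant ones). With group means removed r was 0.52, and within single groups it ran from -0.14 (mutants at 1 h) to 0.86 (WT at 1 h). The difference from its r with the glucocorticoid score (0.57) was not tested, and in naive WT mice (-0.04 against 0.67) and WT mice at 3 h (0.34 against 0.70) the glucocorticoid score had the higher r. With the score of the immediate early genes, Klf10 had r of 0.53 and Klf4 0.50. The 3 genes of highest r with Klf2 over all genes with a mean of at least 1 CPM were Egr4 (0.79), Dnajb1 (0.78) and Dusp5 (0.77), an immediate early factor, a heat shock cochaperone and a phosphatase of Erk. That list changed with the setting: with group means removed it was Fam53c (0.69), Fbxl14 (0.68) and Aggf1 (0.68), and without the 2 discordant libraries Dnajb1 (0.77), Bcl6 (0.77) and Egr4 (0.76). For Klf9 they were Klf13 (0.88), Fam83d (0.86) and Tsc22d3 (0.86), and for Klf15 an unnamed gene (0.93), Tsc22d3 (0.93) and Adipor2 (0.92). For Klf13 they were Klf9, Fbxo10 (0.83) and the same unnamed gene (0.81).

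Dentate granule cell markers were set beside Klf9. Their summed level (Prox1, Dsp, Pdzd2, Trpc6 and Stxbp6) ran from 275.2 to 603.9 CPM in naive WT mice and 370.0 to 575.7 CPM at 3 h, and from 356.0 to 432.8 CPM in naive mutants and 371.3 to 574.1 CPM at 3 h. None of the 5 was called at 3 h against 0 h (1.57% of all genes), 1 rose from 1 h to 3 h (Pdzd2, 0.45, SE 0.10, adjusted p = 0.0423, edgeR; 0.486% of all genes), and none was at 0 in any library, and their score had r of 0.50 with Klf9, 0.47 with Klf13 and 0.22 with Klf15. Choroid plexus markers had r between -0.23 and 0.16 with the 10 members. The part of either in the level of Klf9 was not tested.

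Klf10 and Klf11 are the early genes induced by TGF-β. Klf10 stood at 24.4, 26.7 and 30.8 CPM in naive WT mice, 27.2, 29.6 and 33.1 CPM at 1 h and 18.005, 25.8 and 37.2 CPM at 3 h. Over both genotypes it was higher by 0.15 at 1 h (SE 0.07, adjusted p = 0.407), differed by -0.13 at 3 h (SE 0.10, adjusted p = 0.618), and by -0.28 between 1 h and 3 h (SE 0.09, adjusted p = 0.194, edgeR). With all libraries, no member was called from 1 h to 3 h by edgeR (0.486% of all genes) or by DESeq2 with sex (1.51%), and 2 had an unadjusted p under 0.05 (Klf2 and Klf10), as did 11.1% of all genes. Klf10 was most like Tnfaip3 (r = 0.76), a brake on NF-kappaB, followed by Phf13 (0.73) and Cpd (0.70). Klf11 differed by -0.13 at 1 h over both genotypes (SE 0.10, adjusted p = 0.617) and by -0.10 between genotypes over all times (SE 0.07, adjusted p = 0.553, edgeR). In fits without 1 library the value of Klf10 at 3 h ran from -0.18 (without WT 3 h female 1) to -0.07 (mutant 0 h female 1), and that of Klf11 at 1 h from -0.19 (WT 0 h female 2) to -0.08 (mutant 1 h male 2). Without the discordant libraries the values of Klf10 were 0.15, -0.13 and -0.28 and those of Klf11 -0.18 and -0.08. Klf11 was most like Sema4c (0.68), Ets1 (0.63) and Gbp5 (0.57).

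None of Klf5, Klf6 and Klf7 was called in any comparison by edgeR, and none had an unadjusted p under 0.05 in any. Klf6 and Klf7 favour axon growth, and Klf5 acts in epithelial proliferation. Over all 13 comparisons the log2 fold change of Klf6 ran from -0.09 to 0.05 and that of Klf7 from -0.13 to 0.14, with no adjusted p under 0.586 and 0.642. Klf5 ran from -0.21 to 0.26, with no adjusted p under 0.569. Klf5 was the noisiest of the 3, between 2.17 and 5.07 CPM. It was most like Lgi2 (0.76), Rims3 (0.76) and Tshz2 (0.73), Klf6 most like Nova1 (0.68), Rasgef1b (0.64) and Nap1l5 (0.63), Klf7 most like Dpy19l4 (0.56), Slc36a4 (0.56) and Rfk (0.55), and Klf4 most like Smad1 (0.73), Smtn (0.71) and Acin1 (0.71).

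Klf7 lies on chromosome 1, as Kdm5b does, at chr1:64029447-64122282 (GRCm38, GENCODE M21, minus strand). Its level over all times differed between genotypes by -0.00 (SE 0.05) with an adjusted p of 0.996 (edgeR). The noncoding gene Gm26649 on the opposite strand shares 3196 exonic bases with Klf7, and whether the counting used strand is not given in the sources used here, so reads of both may stand under Klf7.

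Genotype alone gave no call on a member by edgeR and 1 by DESeq2. By edgeR, 0 of 10 were called in naive mice (0% of all genes; 0 members at an unadjusted p under 0.05, against 6.15% of genes), 0 at 1 h (2 members at an unadjusted p under 0.05, Klf9 and Klf13, against 8.61%), 0 at 3 h (0.0115% of genes; 0 members) and 0 over all 3 times (1.3% of genes; 0 members). In DESeq2 with sex the counts of members were 0, 1 (Klf9), 0 and 0, against 0.0808%, 0.608%, 0.27% and 3.07% of all genes. Klf13 at 1 h differed by 0.10 (SE 0.04, adjusted p = 0.534), or 0.07 (adjusted p = 0.586) without WT 1 h male 1, and Klf15 by 0.15 (SE 0.12, adjusted p = 0.753, edgeR). In fits without 1 library that of Klf15 ran from 0.08 (without WT 1 h female 2) to 0.24 (without WT 1 h female 3), with 0.15 without male 1. Klf5 had the largest estimate over all times, 0.15 (SE 0.11, adjusted p = 0.569, edgeR).

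Relatives and partners were examined in the same fits, where 1.05% of all genes were called at 1 h, 1.57% at 3 h and 1.3% for genotype over all times. Of the 7 other Klf genes, 5 passed the filter in the fits over both genotypes (Klf1, Klf3, Klf8, Klf12 and Klf16) and none was called in any comparison by edgeR. Of 9 Sp genes, the nearest family, none was called for time, and Sp7 was higher in mutants over all times (0.82, SE 0.20, adjusted p = 0.0253, edgeR). Of 11 genes of corepressors, coactivators and ligases that act on Klf proteins (Sin3a, Sin3b, Hdac1, Hdac2, Ctbp1, Ctbp2, Ep300, Crebbp, Kat2b, Wwp1 and Fbxw7), none was called at 1 h or 3 h by edgeR, with 3 and 2 at an unadjusted p under 0.05 (12.8% and 15.1% of all genes). Of the 6 hormone receptor genes, Pgr was higher in mutants over all times (0.17, SE 0.04, adjusted p = 0.0255, edgeR).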

How the data were processed

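RNA was extracted from dorsal hippocampus, and poly(A) libraries were sequenced. The deposited files hold raw counts of reads per gene, 1 file per library, made by the authors with STAR 2.7.8a on mm10 and featureCounts 2.0.1 per the labels. The annotation, the strand setting and the treatment of reads with several matches are not given in the sources used here. Gene names came from RefSeq (GRCm38.p6), for 25275 of 27179 identifiers. Members and lists were chosen with earlier results of these data known.

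Each comparison was fitted with edgeR 4.0.16 in R 4.3.3: filterByExpr by group with a minimum count of 10, TMM factors, sex as labelled as a covariate, the robust quasi-likelihood F-test, and a Benjamini-Hochberg adjusted p under 0.05 over all genes tested. The p-values measure the spread between mice. Levels are CPM on TMM library sizes, and log2 CPM used a prior count of 2. Levels per length used the union of exons of GENCODE M21 (GRCm38). Named were all 10 members, up to 4 called genes of each other list by smallest p, the genes a sentence lists as a whole, and the 3 genes of highest r with each member. The libraries of a group came from different mice per the labels, and comparisons with 0 h share the naive libraries. Alternatives were DESeq2 1.42.0, the tool of the study, with sex or no covariate, no filter, RLE factors, at least 10 counts per library, a model lacking sex, 1 joint model of the 36 libraries, a replicate block, sex as the counts show it, and leaving out libraries. The scripts were checked on simulated data. The first cohort of 8 naive mice was not analysed here.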

Additional observations from a re-analysis of the deposited data

Results flagged for a closer look

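Klf10 stood at 40.1 CPM in the library labelled mutant 0 h female 1, the highest of all 36, while the other 5 naive mutants lay between 23.3 and 26.6 CPM. The gap to its neighbour was 0.803 of the range of the group, above Dixon's 95% limit for 6 values. It was 1 of 60 groups of 6 tested over the 10 genes, and chance gives about 1 in 20.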

How the results depend on the processing

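Of 33 values of a member in a comparison, none changed direction under any alternative. In 318 such settings other than leaving out a library, 299 gave the same call and 19 gained one; of 516 fits without 1 library, 27 lost a call and 9 gained one. The cause was not tested. DESeq2 with sex called 1 member between genotypes at 1 h, 2 in mutants at 1 h, 1 in mutants at 3 h and 3 at 3 h over both genotypes (Klf9, Klf13 and Klf15). DESeq2 with no covariate called 1, 2, 1 and 3 there and 2 at 1 h over both genotypes. At 3 h over both genotypes, 2 members (Klf9 and Klf13) were called with 10 counts in every library, with no sex covariate, with all 36 libraries in one fit, with sex as the counts show it and without the 2 discordant libraries, which also gave 1 call (Klf2) from 1 h to 3 h. Leaving out 1 library gave 1 to 2 members in mutants at 1 h, and over both genotypes 0 to 2 at 1 h and 0 to 3 at 3 h. Fits without 1 library over both genotypes, and correlations without the 2 discordant libraries, were chosen after seeing the data.

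Calls over all genes moved more. For genotype at 0 h, 1 h and 3 h, main counts of 0, 0 and 2 ran up to 22, 105 and 47. For 1 h and 3 h against 0 h, counts of 0 and 0 in WT mice ran up to 9 and 59, and counts of 54 and 0 in mutants ran up to 406 and 113. Over both genotypes, 188 at 1 h ran from 177 to 423, 281 at 3 h from 229 to 675, and 87 from 1 h to 3 h from 22 to 2.09% of 18000 genes. Over all times the genotype count of 237 ran from 192 to 559. These ranges leave out the fits without 1 library, which gave 26 (without mutant 0 h male 3) to 86 (mutant 0 h female 2) in mutants at 1 h, and over both genotypes 79 (WT 1 h female 3) to 359 (WT 1 h male 1) at 1 h, 142 (WT 0 h male 1) to 548 (WT 0 h female 2) at 3 h and 16 (WT 1 h male 3) to 231 (mutant 3 h female 2) from 1 h to 3 h. Over both genotypes, counts over 1.5 times below the main one came from 16 of 24 such fits at 1 h, 9 of 24 at 3 h and 19 of 24 from 1 h to 3 h. Within genotypes or times, other such counts reached at most 41 (genotype at 1 h, without WT 1 h male 1). Among the other settings, DESeq2 gave the highest count in each, except from 1 h to 3 h, where the fit without the 2 discordant libraries did.

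With the replicate block, 3 members were called at 3 h over both genotypes (Klf9, Klf13 and Klf15), with 452 genes in place of 281. What the numbers stand for is not given, so the block was not the main design. The r of deviations had a median of 0.178 (-0.341 to 0.503) between libraries of the same sex and number and -0.0293 between others, 56 of 90 same-number pairs were over 0.1, and 17 of 36 libraries were most like their own number. The correlation of Klf6 with the glucocorticoid score was -0.04 and became 0.11 with group means removed. The limit of depth fell on Klf5, Klf4 and Klf11, with fewest counts per library.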
